A study of Mus musculus with 2 samples.

Results

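The genes described here encode receptors with which myeloid cells detect complement fragments, formylated bacterial peptides and lipid chemoattractants. Of the 10 genes chosen, 8 were found on the arrays: C3ar1, C5ar1, Fpr2, Gpr33, Cmklr1, Ptafr, Ltb4r1 and Cd93. A gene counted as found where the platform annotation gives its row (a probe set of the array) that 1 gene symbol alone. Ptgdr2 shares its row with a second symbol and Fpr1 is on no listed row, so neither is given a value. Each found gene had 1 row, and the 8 were part of 22180 genes so named. The genes were selected on a known readout, the log2 differences between the 2 arrays, so those differences are described and not tested.

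The cells were alveolar macrophages, which live on the airway side of the lung's gas-exchange surface, and came from adult C57BL6 littermate mice. They were sorted from collagenase-digested lung as DAPI-negative cells bearing Siglec-F and CD11c. One array held RNA labelled wild type, described as carrying floxed Pikfyve alleles (PIKfyve f_f), and the other held RNA labelled PIKfyve KO, described as carrying those alleles with LysM-Cre (PIKfyve f_f_lysm_cre). Both therefore share the floxed alleles, and Cre stands in the knockout sample alone. LysM-Cre is expressed from the lysozyme 2 locus, which is active in macrophages, neutrophils and part of the monocytes, so other myeloid cells of the knockout mice can lose the gene too. PIKfyve phosphorylates a lipid of endosome and lysosome membranes to form phosphatidylinositol 3,5-bisphosphate, and the comparison asks how its loss alters gene expression in these cells. The number of mice behind each sample is not in the labels. With 1 array per group there is no replicate error, and no difference was tested.

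C3ar1 and C5ar1 bind the anaphylatoxins C3a and C5a, which are cut from complement proteins during activation. The formyl peptide receptors Fpr1 and Fpr2 bind peptides that start with formylmethionine, as bacterial and mitochondrial proteins do, and Fpr2 also binds host ligands such as annexin A1 and serum amyloid A. These receptors, with Cmklr1 (chemerin), Ptafr (platelet-activating factor), Ltb4r1 (leukotriene B4) and the orphan receptor Gpr33, span the membrane 7 times and most signal through inhibitory G proteins to direct migration and prime the oxidative burst. Cd93 is of another build, a C-type lectin-like transmembrane protein once named as a receptor of C1q, found on myeloid cells, endothelium and early B cells.

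Values are log2 signals after RMA, differences are the knockout-labelled array minus the wild-type-labelled array, and folds are powers of 2 of those differences. Background was taken as the 95th percentile of 1432 genes for odorant, pheromone and taste receptors, which sensory cells use and macrophages mostly do not, and lay at 5.37 on the wild-type-labelled array and 5.31 on the knockout-labelled array. Genes with a mean over both arrays of at least 5.13, the median over the rows, formed the comparison set of 12516 genes, in which the median difference was 0. The local spread is a scaled median absolute deviation of the differences of genes of like level. It ran from 0.20 to 0.33 and holds noise and real differences together. Pikfyve itself read 5.68 and 5.95, a difference of 0.27, so it was not lower in the knockout-labelled array, and the labels do not give the part of the gene that its row covers. The row therefore does not check the labels, and the groups are called by their labels throughout. All 15 alveolar macrophage markers found were above background on both arrays, with a median difference of 0.09, and 4 were at least 1.5-fold lower and 1 higher in the knockout-labelled array. The lower ones were Krt79 (-0.98), Flt1 (-0.88), Siglecf (9.27 and 8.54) and Cidec (-0.59), and the higher one was Fabp4 (0.62). Itgax, which encodes CD11c and like Siglecf was used in the sort, read 10.03 and 10.39, and Marco 9.46 and 10.03.

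The receptor genes did not all differ in one direction. Cd93 and C3ar1 were higher in the knockout-labelled array, Gpr33 was lower, and the other 5 differed by less than 1.5-fold. Of the 8 genes, 2 were at least 1.5-fold higher, beside 4.45% of the comparison set, and 1 was at least 1.5-fold lower, beside 2.66%. As read, the same 3 genes were 2-fold apart or more, where the comparison set holds 0.927% higher and 0.336% lower, but measured from the background level C3ar1 falls under 2-fold and Cd93 is the 1 gene that is higher by that much. Since these differences guided the choice of genes, nothing is read from those shares. The median difference of the 8 was -0.08, with 4 genes higher and 4 lower, and the range ran from -1.38 to 1.71. On both arrays 6 of the genes were above background, C3ar1 was above it on the knockout-labelled array alone, and Cmklr1 was below it on both.

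**Figure D1:**
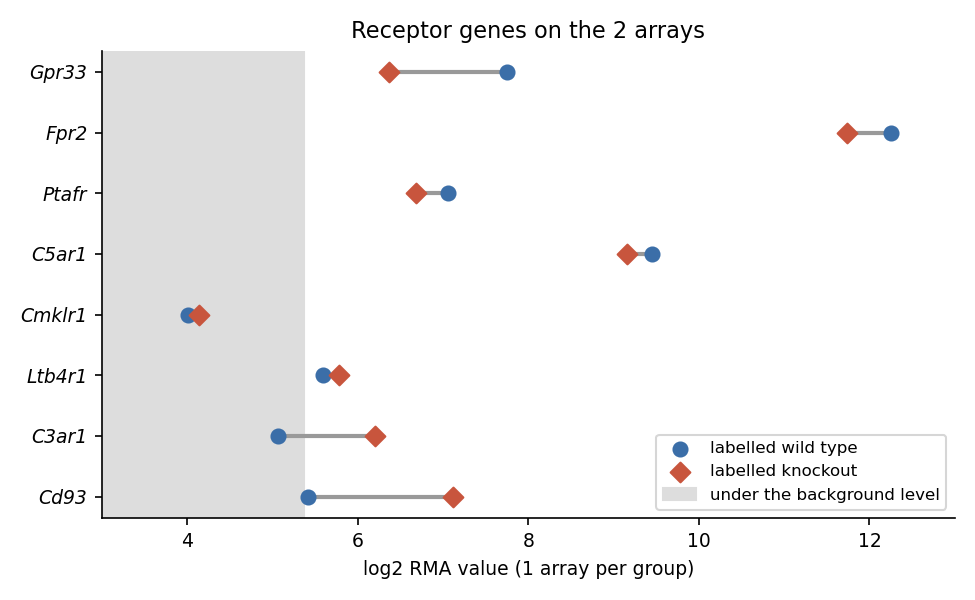
Log2 RMA values (x axis) of the 8 receptor genes (y axis) on the array labelled wild type (circles) and the array labelled knockout (diamonds), 1 array per group, with no error bars because there are no replicates; grey marks values under the background level. C3ar1 crosses out of the grey from 5.06 to 6.20, Cd93 starts at its edge, and Gpr33 runs the other way, from 7.74 to 6.37.

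Among the receptors for complement fragments, C3ar1 and C5ar1 read in opposite directions. C3ar1, the C3a receptor, read 5.06 in the wild-type-labelled array and 6.20 in the knockout-labelled array. The first value lay under background, above 91.8% of the sensory receptor genes, and the second above 99.1% of them. Because the first value is under background, the difference as read, 1.14, rests on a level that was not measured well. From the background level the difference is 0.83, or at least 1.78-fold higher, beside a local spread of 0.27. C3ar1 entered the comparison set through its value in the knockout-labelled array. C5ar1, the C5a receptor that drives neutrophil and macrophage recruitment, read 9.45 and 9.15. Its difference of -0.29 was smaller than the local spread of 0.31. C5ar2, a second C5a receptor that couples poorly to G proteins and lies next to C5ar1 in the genome, read 5.99 and 5.46, a difference of -0.53 or 1.45-fold. Ccdc9, the next measured gene on the other side of C5ar1, read 5.52 and 4.77, the latter below background, and was at least 1.16-fold lower. The genes on either side of C3ar1, Foxj2 and Necap1, differed by 0.12 and -0.11. Neighbours, here and for the other genes, are the next protein-coding genes with a row of 1 symbol, so other genes can lie between. Around the genes described further on, Has1 (4.39 and 4.17) beside Fpr2 and Ficd (4.84 and 4.84) beside Cmklr1 were below background on both arrays. Wscd2 beside Cmklr1 differed by -0.02, Dnajc8 and Eya3 beside Ptafr by 0.08 and -0.22, and Nop9 beside Ltb4r1 by -0.09. Adcy4, on the other side of Ltb4r1, read 4.99, below background, and 5.41.

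Cd93 had the largest difference of the 8 genes. It read 5.41 in the wild-type-labelled array, 0.04 above the background level there, and 7.12 in the knockout-labelled array, above 99.7% of the sensory receptor genes. The difference of 1.71, or 3.27-fold, was 6.27 times the local spread, and 30 genes were further apart in that direction. Thbd, which encodes the endothelial and myeloid protein thrombomodulin and lies beside Cd93, read 6.65 and 6.90, and Nxt1 on the other side read 7.32 and 7.47. Over both arrays, the genes with values nearest to those of Cd93 were Ceacam1, at a distance of 0.32 (5.69 and 6.97), Reg3g (5.47 and 7.44) and Rab34 (5.22 and 6.86). With only 2 arrays such likeness is one of level and difference and no more.

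Because Cd93 is also an endothelial gene, the endothelial markers were read beside it. Of 13 such markers, 4 were above background in the wild-type-labelled array and 6 in the knockout-labelled array. Their summed linear signal was 556 and 710. In bulk RNA such as this, a change in the number of cells of a type and a change in RNA per cell cannot be told apart. Cdh5, which encodes VE-cadherin (5.20 and 5.24), Kdr (4.93 and 4.49) and Cldn5 (4.93 and 4.95) were below background on both arrays. Vwf, the von Willebrand factor gene (6.24 and 6.40), Egfl7 (5.61 and 5.52) and Pecam1 (5.53 and 5.32) were above it on both. Cav1, the caveolin gene, was at least 2.17-fold higher (5.36 and 6.49), and Calcrl, a receptor subunit for adrenomedullin, was 1.91-fold higher (7.01 and 7.94). The higher sum is carried by Calcrl, which held 23.2% and 34.7% of the sums, and by Cav1. What part endothelial signal has in the Cd93 difference was not tested. B cell markers, 6 of 6 above background on both arrays, summed to 611 and 588, with Blk at -0.54, Cd79a at -0.15 and Pax5 at 0.09 the furthest apart.

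Gpr33 was the receptor gene that was lower by most. It encodes an orphan receptor related by sequence to the chemoattractant receptors, and the human gene is a pseudogene in most people. Gpr33 read 7.74 in the wild-type-labelled array and 6.37 in the knockout-labelled array, both above background. The difference of -1.38 was 4.85 times the local spread in size, a 2.60-fold lower signal, and 8 of the 12516 genes were further apart in that direction. Its neighbours Dtd2 and Nubpl differed by 0.20 and 0.12. Of the monocyte markers past the filter, 8 read lower beside it and 1, Treml4 (8.08 and 8.17), read higher. Of 9 that passed the filter, 5 were at least 1.5-fold lower, Fn1 (7.58 and 6.04), Ms4a4c (7.00 and 5.68), Plac8 (8.89 and 7.87), Nr4a1 (8.84 and 8.10) and Ly6c2 (8.35 and 7.66), and none was 1.5-fold higher. The 12 monocyte markers found summed to 2232 and 1417 in linear signal, and 9 and 8 of them were above background. Nr4a1, also an immediate early gene, held 20.5% and 19.4% of those sums. Ccr2, which defines classical monocytes, read 6.93 and 6.80. What part the monocyte signal has in the Gpr33 difference was not tested.

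**Figure D2:**
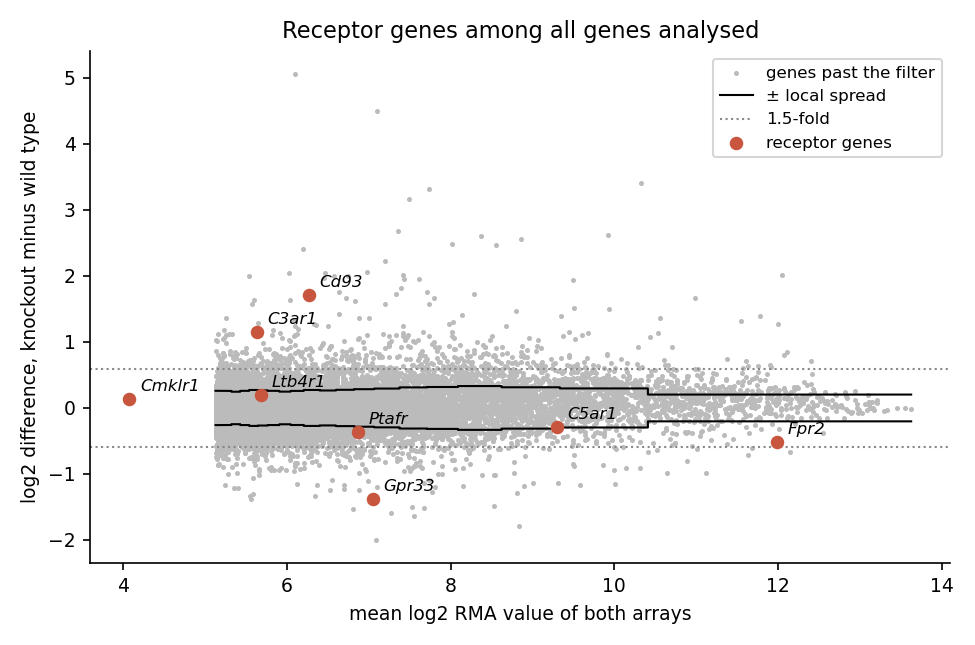
Log2 difference, knockout-labelled minus wild-type-labelled (y axis), against the mean log2 RMA value of both arrays (x axis) for the 12516 genes of the comparison set (grey) and the 8 receptor genes (red); black lines mark the local spread on each side of 0 and dotted lines a 1.5-fold difference. Cd93, C3ar1 and Gpr33 lie outside the dotted lines, and Cmklr1 lies left of the grey cloud because its mean is under the filter.

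Fpr2 is the formyl peptide receptor gene with a value here. It read 12.25 and 11.73, both above all the sensory receptor genes. The difference of -0.52, or 1.43-fold, was 2.57 times the local spread of 0.20, which is narrow at high signal, and 9.75% of the comparison set had a larger absolute difference. With the arrays quantile normalised the difference was -0.59, past 1.5-fold. Other genes of the formyl peptide receptor family, Fpr-rs3 (4.76 and 4.53), Fpr-rs4 (2.68 and 3.07) and Fpr-rs6 (2.60 and 3.12), were below background on both arrays. Fpr family genes are alike in sequence, and whether probes of the Fpr2 row also catch other family members was not tested. Ccl3, a chemokine gene, was nearest to Fpr2 over both arrays, at a distance of 0.14 (12.17 and 11.85), followed by Fcgrt (12.05 and 11.80) and Hspa1b (12.48 and 11.82).

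Signals of other cells are set beside Fpr2 and C5ar1, since neutrophils and monocytes carry both receptors. All 15 neutrophil markers were above background in the wild-type-labelled array and 14 in the knockout-labelled array. Their summed linear signal was 7364 and 10021. S100a8 and S100a9 held 80.7% and 79.5% of those sums, and without these 2 genes the sums were 1423 and 2055. Of the 15, 5 were at least 1.5-fold higher: S100a8 (11.44 and 12.08), Ly6g (5.78 and 6.57), Retnlg (7.51 and 8.45), Mmp8 (7.91 and 8.61) and Camp (7.47 and 8.56). Lower by as much were 2, Hdc (6.13 and 5.48) and Csf3r, the receptor for granulocyte colony-stimulating factor (6.32 and 5.68). Monocyte markers, named beside Gpr33, summed to 2232 and 1417. Of the 9 past the filter, 5 were at least 1.5-fold lower, with a median of -0.69. The list of immediate early genes, which respond to cell stimulation and to tissue handling, also holds the heat shock genes Hspa1a, Hspa1b and Dnajb1. Most genes of this list were lower, as Fpr2 and Gpr33 were. Of 23, 12 were lower by 1.5-fold or more and none was higher by that much, with a median difference of -0.59. The largest of these differences were those of Egr2 (9.49 and 8.31), Hspa1a (10.58 and 9.43) and Ier2 (9.05 and 8.04). The other 9 were Zfp36 (-0.92), Klf2 (-0.79), Nr4a1 (-0.73, also one of the monocyte markers), Socs3 (-0.73), Hspa1b (-0.66), Klf4 (-0.64), Jund (-0.62), Dusp1 (-0.60) and Junb (-0.59). The part of the neutrophil, monocyte and immediate early signals in the receptor differences was not tested.

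The receptors for lipids and for chemerin differed little. Ptafr, the receptor for platelet-activating factor, read 7.06 and 6.69, a difference of -0.37 that was 1.30 times the local spread. Ltb4r1, the high-affinity receptor for leukotriene B4, read 5.59 and 5.78, not far above background on either array, and its difference of 0.20 was inside the local spread of 0.27. Cmklr1, the chemerin receptor, read 4.01 and 4.14, below background on both arrays and above only 71.0% and 75.7% of the sensory receptor genes, so no fold is given. The second chemerin receptor gene Gpr1 was also below background (4.15 and 4.33). Ccrl2, which binds chemerin without signalling, read 9.72 and 10.01, and Gpr17 read 5.22 and 5.15, below background. The prostaglandin D2 receptor gene Ptgdr read 5.05 and 5.09, below background on both arrays, and Cysltr1, for cysteinyl leukotrienes, read 5.48 and 4.69, with a mean under the filter.

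The 250 bases before the annotated start of Gpr33, C3ar1 and Fpr2 are shown because these are the receptor genes with a large difference or a high signal that have a RefSeq promoter sequence (GRCm38.p6). They run 5′ to 3′ on the strand of each gene, and capitals mark every match to 4 motifs searched on both strands: GAGGAA of the macrophage factor PU.1, TGANTCA of AP-1, CACGTG of the lysosomal regulators TFEB and TFE3, and TTGCNNAA of C/EBP factors. The regions are chr12:52028064-52028313 on the minus strand for Gpr33, chr6:122856158-122856407 on the minus strand for C3ar1 and chr17:17887574-17887823 on the plus strand for Fpr2.
Gpr33: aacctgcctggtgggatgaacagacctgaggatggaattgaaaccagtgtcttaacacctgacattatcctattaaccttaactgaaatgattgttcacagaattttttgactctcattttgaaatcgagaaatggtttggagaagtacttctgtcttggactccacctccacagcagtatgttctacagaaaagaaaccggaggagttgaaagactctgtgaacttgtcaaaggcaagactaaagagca
C3ar1: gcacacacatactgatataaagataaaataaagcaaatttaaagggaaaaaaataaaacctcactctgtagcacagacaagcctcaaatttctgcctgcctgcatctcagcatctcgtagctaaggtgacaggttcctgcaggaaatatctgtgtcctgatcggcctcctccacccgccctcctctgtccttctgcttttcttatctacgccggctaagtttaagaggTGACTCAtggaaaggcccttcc
Fpr2: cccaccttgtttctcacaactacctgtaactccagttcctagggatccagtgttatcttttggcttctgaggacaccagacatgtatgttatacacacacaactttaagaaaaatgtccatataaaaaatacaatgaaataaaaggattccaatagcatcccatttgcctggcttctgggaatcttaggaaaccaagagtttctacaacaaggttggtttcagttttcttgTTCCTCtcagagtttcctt
The C3ar1 sequence holds 1 AP-1 match, which ends 16 bases before the start, in a window where 6.75% of 32851 RefSeq promoters have one. In the Fpr2 sequence 1 PU.1 match, on the opposite strand, ends 14 bases before the start, and 23.3% of promoters hold that motif. The windows of Ptafr, Cmklr1, Ltb4r1 and Ptgdr2, not printed, hold PU.1 matches too. Gpr33 has no match in its window. Cmklr1 has 1 CACGTG match, a motif in 6.02% of promoters, and the C/EBP motif, in 9.56% of promoters, was in none of the 9 windows of the 10 genes. None of the 4 motifs overlaps another in the sequences printed.

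The genes that make or control the ligands were described by lists that were likewise drawn up with earlier results known. Of 8 complement component genes that passed the filter, 2 were 1.5-fold higher or more as read, 1 when measured from the background level, and none was lower by that much, with a median of -0.01. C1qb, a chain of the C1q recognition molecule, read 6.66 and 7.30, and C1qc read 5.23 and 5.94, the first of them below background, or at least 1.48-fold higher. The third chain gene, C1qa, read 6.97 and 7.00. C1ra, a protease gene of the classical pathway, read 6.71 and 6.26 (-0.45). Cfb, factor B of the alternative pathway, read 8.36 and 7.93 (-0.44), Cfp, which encodes properdin, 9.89 and 9.66, and Hc, the mouse C5 gene, 4.36 and 4.47, below background. Complement regulators and phagocytic receptors had a median of 0.20, and all 5 past the filter were higher by less than 1.5-fold, led by Clu (at least 1.13-fold), Itgax (0.36) and Itgb2, which encodes CD18 (0.20).

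C3ar1 and the C1q genes are expressed in other lung macrophages as well, and markers of interstitial macrophages were set beside them. Of 11 that passed the filter, 4 were 1.5-fold higher or more as read, 3 of them when measured from the background level, and none was lower by that much, with a median of 0.25. These were C1qb, C1qc, Ms4a7 (8.06 and 9.31) and the macrophage elastase gene Mmp12 (6.87 and 7.64). Csf1r, the receptor of the macrophage growth factor CSF-1, read 6.88 and 6.54, Folr2 5.50 and 5.41 and Cx3cr1 5.76 and 6.01. Of the 13 found, 9 and 11 were above background. Their summed linear signal was 7965 and 9266, of which Cd68, a gene of macrophages at large (12.76 and 12.91), held 87.2% and 83.3%, and without Cd68 it was 1019 and 1549. Their part in the C3ar1 difference was not tested.

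**Figure D3:**
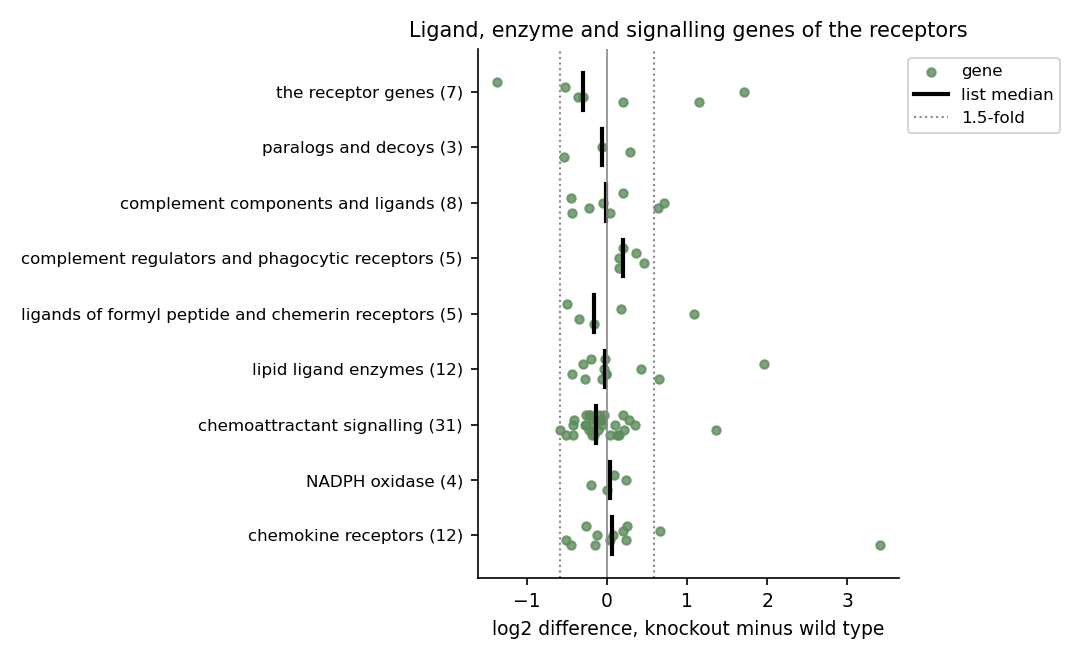
Log2 difference, knockout-labelled minus wild-type-labelled (x axis), of genes past the filter in each list (y axis, number of genes in brackets); each point is 1 gene, black bars are list medians and dotted lines mark 1.5-fold. List medians lie between -0.29 for the 7 receptor genes that passed and 0.20 for complement regulators, while single genes such as Hpgds at 1.96 stand far out.

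Protein ligands of the formyl peptide and chemerin receptors had a median of -0.16 over 5 genes, and 1 of them was at least 1.5-fold higher. That gene was Camp (7.47 and 8.56), which encodes the cathelicidin CRAMP, an Fpr2 ligand that is also one of the neutrophil markers. Anxa1, the annexin A1 gene, read 12.68 and 12.52, Saa3, a serum amyloid A gene, read 7.49 and 6.99, and App, the amyloid precursor gene, 9.39 and 9.03.

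Among 12 enzymes that make or remove the lipid ligands, 2 were at least 1.5-fold higher, none was 1.5-fold lower, and the median was -0.03. Hpgds, the haematopoietic prostaglandin D2 synthase, read 6.64 and 8.60, a 3.88-fold higher signal. Lpcat2, which makes platelet-activating factor in inflammatory cells, read 6.12 and 6.78, 1.57-fold higher, in the array where the Ptafr signal was lower by 0.37. The leukotriene B4 route differed less. Alox5, the 5-lipoxygenase gene, read 8.43 and 8.15, its partner Alox5ap 12.57 and 12.56, and Lta4h, whose enzyme forms leukotriene B4, 9.28 and 9.27. Ptgds, the other prostaglandin D2 synthase, read 5.78 and 5.34. Markers of eosinophils, basophils, mast cells and type 2 lymphocytes, which use prostaglandin D2 and its receptor, were below background in most cases, with 3 of 16 above it in the wild-type-labelled array and 5 in the knockout-labelled array. Their summed linear signal was 792 and 2846, of which Ear6 (8.60 and 11.23) held 49.2% and 84.4%. Most of the difference between the sums is thus that of Ear6 alone. Prg2 was at least 1.31-fold higher (4.71 and 5.76), Epx read 4.95 and 5.33, and the mast cell gene Cpa3 (4.74 and 4.90) was below background on both arrays. Mcpt8 read 4.55, below background, and 5.67, at least 1.23-fold higher, with a mean under the filter. Their part in the Hpgds difference was not tested.

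Downstream signalling genes mostly read slightly lower. Of 31 past the filter, 22 were lower and 9 higher, the median was -0.14, and 1 was lower by 1.5-fold or more. As read, 1 was higher by that much, and measured from the background level none was. Arrb2, a beta-arrestin that binds activated receptors and takes them into endosomes, read 9.20 and 8.61, 1.51-fold lower. Rgs18, a regulator that shortens G protein signals, read 4.58 and 5.93, and from the background level it was at least 1.48-fold higher. Gnai2, the main inhibitory G protein subunit of leukocytes, read 9.44 and 9.01, Fgr, a Src family kinase, 8.37 and 7.86, and Grk5, a receptor kinase, 6.74 and 6.32. Rac2 (11.63 and 11.42) and the oxidase gene Cybb (10.93 and 10.74) differed by -0.22 and -0.20. The 4 oxidase genes measured had a median of 0.04 and none was 1.5-fold apart, with Ncf1 at 0.24 and Ncf4 at 0.09.

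Chemokine receptors are the receptor family closest in role. Of 12 past the filter, 2 were 1.5-fold higher or more and none was lower by that much, with a median of 0.06. Cxcr1 read 8.62 and 12.03, and Ccr7 7.31 and 7.97, while Ccr1, which binds Ccl3, read 8.63 and 8.11 and Cxcr2, a neutrophil receptor, 6.86 and 7.10. Of 12 T and NK cell markers, 7 were above background in the wild-type-labelled array and 9 in the other. At least 1.5-fold higher were 2, Gzma (7.09 and 8.23) and Cd3d (6.43 and 7.21), with Nkg7 at 0.55. Of the 10 past the filter, 7 were higher and 3 lower, Prf1 (6.35 and 6.04), Cd3e (5.96 and 5.82) and Cd4 (-0.05). Dendritic cell markers had a median of 0.01 with Ccr7, Irf8 (9.22 and 8.69) and Cd209a (6.71 and 6.90) the furthest apart. Of 12 epithelial markers past the filter, 5 were at least 1.5-fold higher and 1 lower, with a median of 0.21. The higher ones were the airway secretory genes Bpifa1 (7.32 and 9.78), Scgb3a1 (8.07 and 9.53) and Scgb3a2 (7.82 and 8.82) and the surfactant genes Sftpa1 (0.84) and Sftpc (0.78), and the lower one was Epcam (8.09 and 6.09).

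**Figure D4:**
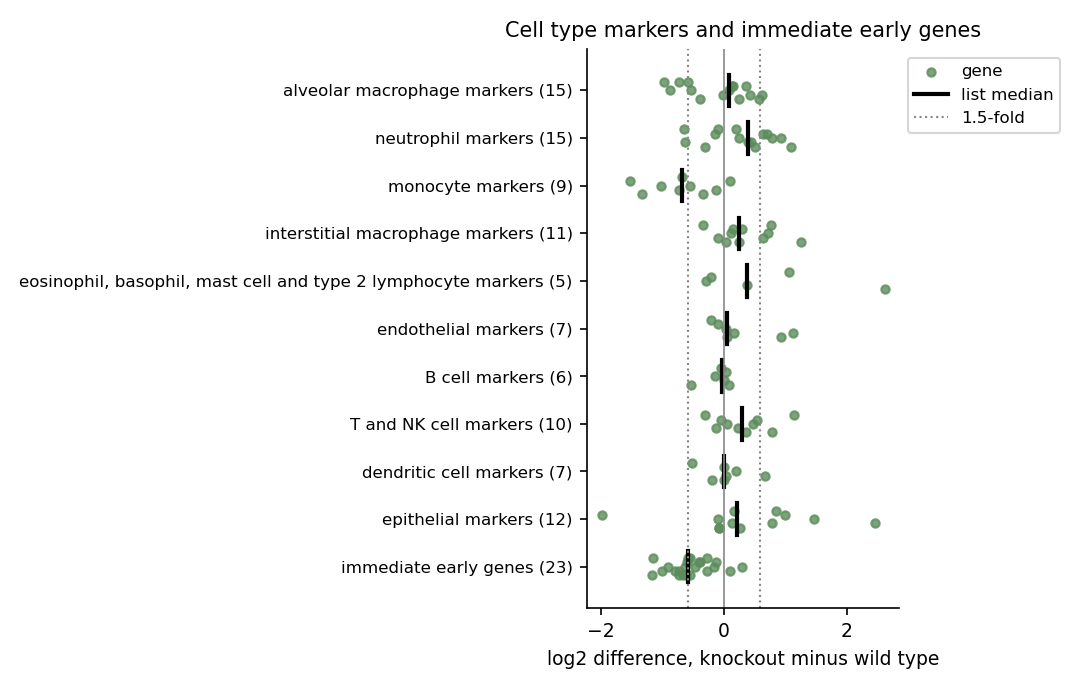
Log2 difference, knockout-labelled minus wild-type-labelled (x axis), of cell type markers and immediate early genes past the filter (y axis, number of genes in brackets); each point is 1 gene, black bars are list medians and dotted lines mark 1.5-fold. Monocyte markers (median -0.69) and immediate early genes, a list that includes heat shock genes (-0.59), lie left of 0. Neutrophil markers (0.40) and T and NK cell markers (0.29) lie right of it.

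The direction of Cd93, C3ar1 and Gpr33 was the same under each setting that can change a gene's difference. The filters and the 2-fold threshold cannot, and neither can the row with the highest mean, as each receptor gene had 1 row. Differences ran from 1.20 to 1.77 for Cd93, from 0.69 to 1.21 for C3ar1 and from -1.38 to -1.11 for Gpr33. Fpr2 ran from -0.59 to -0.45, on both sides of 1.5-fold.

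**Figure D5:**
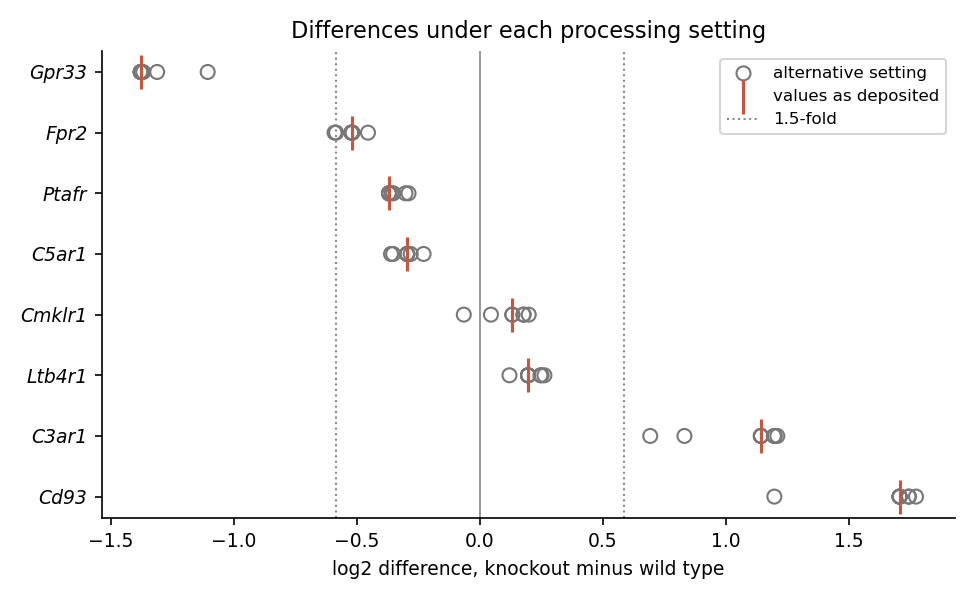
Log2 difference, knockout-labelled minus wild-type-labelled (x axis), of the 8 receptor genes (y axis) with the values as deposited (red bars) and under each alternative setting (open circles); dotted lines mark 1.5-fold. The circles of Cd93, C3ar1 and Gpr33 stay outside the dotted lines, and those of Cmklr1 lie on both sides of 0.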

How the data were processed

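RNA of sorted alveolar macrophages was measured on 2 Affymetrix arrays, 1 per group. The authors deposited log2 values, which the submitters' processing notes credit to RMA, a method that removes background, brings arrays to a common distribution and gives each row 1 value from its probes. Over the deposited rows the 2 arrays do not share exactly the same distribution. Median centring and quantile normalisation still changed the differences, that of Fpr2 from -0.52 to -0.59 with the latter. For the version, annotation and build, "not given in the sources used here" applies; the values are read as log2 because RMA gives log2 and their range fits it. The table has 41345 rows: 23521 with 1 gene symbol, 1814 with several and 16010 unnamed here. Rows of a gene were averaged. Of the named rows, 23328 matched a RefSeq gene table (GRCm38.p6) by Entrez ID, and 0 had another symbol. The local spread was the median absolute deviation, scaled by 1.4826, in each of 20 bins of level. Python 3.11.15, pandas 2.3.3 and statsmodels 0.14.6 were used. Counting of calls was checked on simulated data whose noise was kept under 1.5-fold, and scaling on the wild-type-labelled values with a constant added. Both checks cover the code and not the noise of these arrays. No test was run, since 1 array per group leaves no residual degrees of freedom; precision is limited by the number of arrays, and the values carry no depth beyond signal over background.

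The genes and lists were chosen with earlier results of these data known. Named were all 8 receptor genes, their neighbours, the genes nearest to Cd93 and Fpr2, and list genes past the filter that were 1.5-fold apart or among the 3 largest differences. Other list genes were named after their values were seen. Alternatives were other filters, median, quantile and loess (span 0.3) scaling, an offset of 32, the row with the highest mean, a 2-fold threshold and values raised to background.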

Additional observations from a re-analysis of the deposited data

How the results depend on the processing

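Of 10 alternatives, 9 were planned and 1, keeping only the 7 genes past the filter, was chosen after seeing the data. The count of receptor genes at least 1.5-fold lower was 1 as deposited and 2 with quantile normalisation, which brought in Fpr2 at -0.59; under the other alternatives it stayed 1, also at 2-fold. The count at least 1.5-fold higher was 2 under each, at 2-fold with C3ar1 as read. The median difference was -0.08 as deposited and ran from -0.29, with Cmklr1 left out by a filter, to -0.01 with median centring. Among 70 single-gene values, 3 moved by more than the local spread: C3ar1 to 0.69 and Cd93 to 1.20 with the offset of 32, and C3ar1 to 0.83 with values raised to background, all by construction of settings that shrink low signals. The sign changed in 1, Cmklr1, at -0.06 with values raised to background, where both of its values equal the background levels. Single-gene values under the filters and the row with the highest mean equal those as deposited by construction, so they are no check. Signal over background limits C3ar1 and Cd93 in the wild-type-labelled array and Cmklr1 in both. No paired analysis was possible because each group has 1 array.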
